A study of Arabidopsis thaliana with 18 samples.

Results

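The ozone response of Col-0, the ozone-tolerant laboratory accession of Arabidopsis thaliana, was read from 6 of the 18 RNA-seq libraries of the study. These were 3 libraries of control rosettes and 3 of rosettes exposed to 350 ppb ozone for 2 h. The libraries were chosen by their genotype label, and 20622 of the 32678 genes in the count files passed the low-count filter and were tested. The plants were of the accession itself and 3 weeks old, and each library was made from pooled whole rosettes, 10 to 15 to a pool. The other 12 libraries came from Cvi-0, an ozone-sensitive accession, and Col-S, a single near-isogenic line with Col-0 background that carries ozone sensitivity from Cvi-0, each with control and ozone-treated groups of 3. They entered the model to estimate the spread and served as the comparison at the end. The labels call the libraries biological replicates without saying that pools were grown at separate times, so the p-values measure the spread between these pools.

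Ozone enters a leaf through the stomata and breaks down in the cell wall space to reactive oxygen species, which cells perceive much as they perceive a pathogen attack. Calcium influx, protein kinase cascades and transcription factors of the WRKY, NAC, ERF and MYB families then act on defence genes, and mitochondria and the endoplasmic reticulum send their own stress signals to the nucleus. In leaves such acute stress is known to go together with reduced photosynthesis and growth.

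The Col-0 libraries held 16618338 to 25789925 counts. A floor of 3 counts lay at 0.116 to 0.181 CPM, which are counts relative to the library total. Summed CPM of marker sets use the same totals. CPM of single genes below use library totals scaled by composition factors (TMM). The first principal component of these 6 libraries alone held 87.4% of the variance and placed the controls at -110.77 to -79.3 and the ozone libraries at 76.91 to 111.96. Replicate 2 was the least extreme library of both groups. Mesophyll markers of the leaf were present at a summed 84429 to 87175 CPM in the controls. Of 13 root markers 6 had no count, the root hair genes EXPA7, EXPA18, RHD6 and RSL4 and the root stem cell factors PLT1 and PLT2. The others had counts, and the 13 summed to 33.5 to 36.9 CPM in controls and 16.7 to 22.5 CPM after ozone. Of these markers 3 passed the filter, and 1 was called lower.

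Of the 20622 tested genes, 6145 rose (29.8%) and 5679 fell (27.5%), together 57.3%, at an adjusted p below 0.05 in edgeR's quasi-likelihood test with Benjamini-Hochberg adjustment. Changes of at least 2-fold were more often increases, with 3501 genes called higher (17%) and 1760 called lower (8.53%). Increases were also larger: 1074 called genes rose by at least 3 on the log2 scale, against 59 that fell by as much. The median log2 fold change over all tested genes was -0.019. Among 530 genes with an average of at least 8 log2 CPM over the 18 libraries, 29.1% rose and 7.36% fell at least 2-fold. Among the 3260 genes below 1 log2 CPM the shares were 14.4% and 8.34%. The average includes the ozone libraries, so a strong rise could by itself place a gene in the upper group. ABCG40, with a control mean of 9.79 CPM, is such a gene. These shares therefore do not show that genes abundant in controls tended to rise. Genes called abundant below were set by the same average. With library totals in place of composition factors, 5378 genes were called higher and 6965 lower, the median of all genes was -0.142, and the share of increases among the called genes was 43.6% in place of 52.0%. Directions below are relative to the median gene.

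The genes that rose at least 2-fold took 5.51%, 6.71% and 5.75% of all counts in the control libraries and 33.1%, 26% and 34.5% in the ozone libraries. Their share was 5.21-fold larger after ozone, and the groups did not overlap. The genes that fell at least 2-fold held 11.6%, 10.8% and 10.7% in controls and 3.31%, 5.22% and 3.15% after ozone. Both sets were chosen on these libraries, so the shares describe the size of the change and test nothing. Ozone replicate 2 moved least in both directions: its median log2 difference from the control mean was 1.63 over the risen set, against 1.83 and 1.90 in ozone replicates 1 and 3, and -0.92 over the fallen set, against -1.44 and -1.49.

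The 8 abundant genes with the highest log2 fold changes included a transporter, a camalexin enzyme, a glutamate decarboxylase, a lipase and a lectin. ABCG40 (AT1G15520, chromosome 1, 5331858 to 5338326, TAIR10), a plasma membrane transporter known to import abscisic acid, stood at 4.53, 16.8 and 8.05 CPM in controls and at 2700, 1882 and 3485 CPM after ozone. Every ozone library was far above every control. Control and ozone values did not overlap, by a large or a small margin, in 63.4% of the tested genes. The log2 fold change was 8.08 (SE 0.43, adjusted p = 9.3e-11). PAD3 (AT3G26830, chromosome 3, 9887948 to 9889705), the cytochrome P450 of the last step to the phytoalexin camalexin, stood at 1.41, 11.4 and 1.86 CPM in controls and at 1298, 894 and 1198 CPM after ozone. Control replicate 2 was the highest control for both genes. PAD3 rose by 7.80 on the log2 scale (SE 0.66, adjusted p = 2.3e-08).

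The other abundant genes chosen for the size of their rise had log2 fold changes from 6.96 to 8.70. AT1G26380, a berberine-bridge-type oxidase, had 0.589, 2.09 and 0.722 CPM in controls and 536, 439 and 526 CPM after ozone (log2 fold change 8.70). AT3G15356, a legume lectin family protein, had 19.4, 26.7 and 17.7 CPM in controls and 4325, 2212 and 2769 CPM after ozone (7.18). In both genes the groups were separated by more than an order of magnitude. GAD4, a glutamate decarboxylase that makes the stress metabolite GABA, had 4.18, 4.54 and 3.10 CPM in controls and 642, 415 and 845 CPM after ozone (7.32). PLA2A, a patatin-type lipase that frees fatty acids from membrane lipids, had 3.77, 6.38 and 4.90 CPM in controls and 751, 564 and 574 CPM after ozone (6.96). AT4G39670, a glycolipid transfer protein, and AT1G19020 rose by 7.29 and 7.20.

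The 8 abundant genes with the lowest log2 fold changes included a pair of aquaporins, a pair of wall proteins and a pair of genes with lipid-transfer domains. The plasma membrane aquaporin PIP2A (AT3G53420, chromosome 3, 19803655 to 19805713) had 1273, 1582 and 1173 CPM in controls and 194, 514 and 170 CPM after ozone. Its log2 fold change was -2.20 (SE 0.30, adjusted p = 7.5e-06), and ozone replicate 2 was the closest to the controls. The vacuolar aquaporin TIP2 fell from 938, 904 and 1009 CPM to 222, 362 and 231 CPM (log2 fold change -1.81). AT2G10940, which carries a lipid-transfer domain, fell from 905, 1108 and 1135 CPM to 144, 333 and 158 CPM (-2.31). The extensin-like ELP (-2.23), the lipid-transfer-domain gene AT2G45180 (-2.20), the aldolase FBA5 (-2.17) and the proline-rich wall protein PRP4 (-1.86) fell with them. ESP, which turns glucosinolate breakdown towards nitriles, fell from 33.8, 35.3 and 33.5 CPM to 4.76, 12.4 and 6.24 CPM (-2.12) and counted as abundant through its average over all 18 libraries. Abundant and intermediate genes were named only where control and ozone values did not overlap, so their separation was set by the choice.

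**Figure D1:**
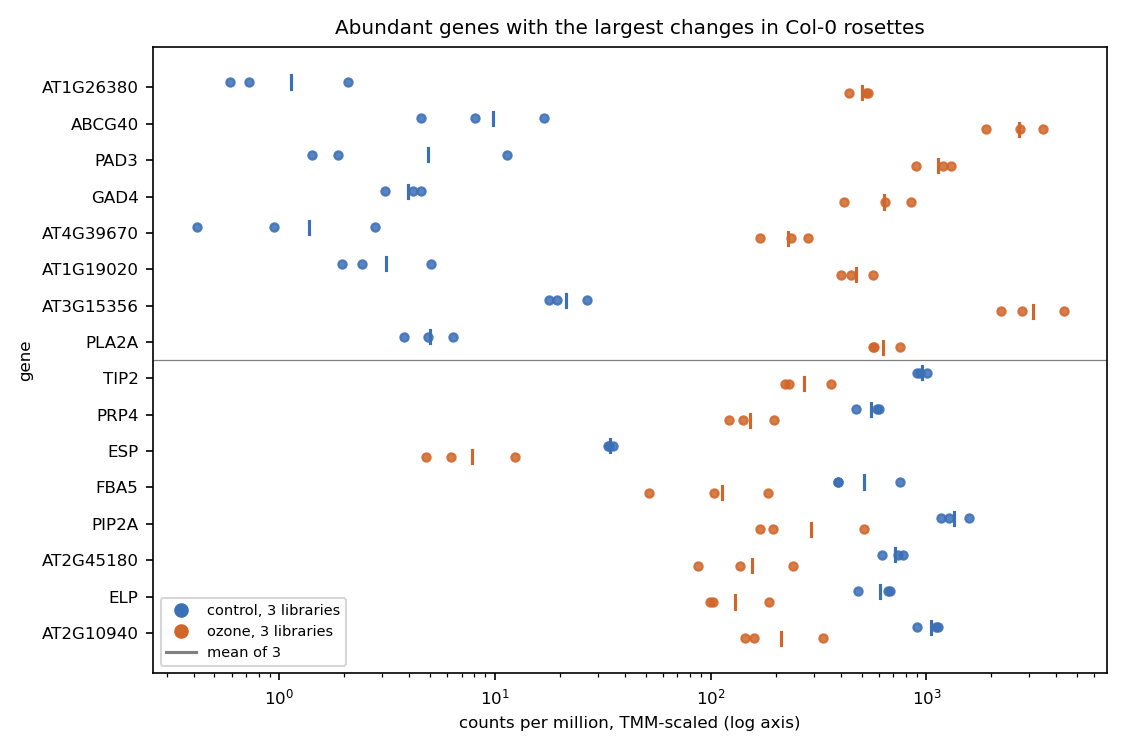
CPM (log axis) of the 16 abundant genes with the highest and the lowest log2 fold changes, one point for each of the 3 control and 3 ozone libraries of Col-0. Only genes whose ozone and control points do not overlap were eligible. For ABCG40 the ozone points lie at 1882 to 3485 CPM above controls of 4.53 to 16.8 CPM.

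At intermediate abundance (5 to 8 log2 CPM on average) the range was wider. The acyltransferase AACT1 had 0.118, 0.205 and 0.0516 CPM in controls and 447, 320 and 276 CPM in the treated libraries (log2 fold change 11.30). DIN11, an oxygenase first known from dark-treated leaves, rose by 9.39, and CYP71A12, an enzyme of indole-derived defence compounds, by 9.05. CYP82C3 had 2 counts in the controls together and 3098 after ozone, a ratio of 1490 with an exact 95% counting interval of 412 to 12307. UGT73B4, a stress-induced glucosyltransferase, rose by 8.81, but its annotation overlaps that of its close relative UGT73B5, so reads may be shared between them. In the other direction the wall-loosening expansin EXPA8 fell by 4.40, the gibberellin-regulated GASA6 fell by 3.57, AT4G29905 fell by 3.21, the xyloglucan-remodelling XTH6 fell by 3.09 and the GDSL-type lipase AT1G29660 fell by 2.97. Control values of GASA6 spread from 55.8 to 222 CPM and those of EXPA8 from 72.1 to 170 CPM.

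Members of 3 cell surface receptor families rose more often than they fell. The shares to set beside these and the later list counts are 29.8% called higher and 27.5% called lower of all tested genes. All 10 tested wall-associated kinases, some of which bind pectin, were called higher, with a median log2 fold change of 2.49 against -0.019 for all genes. WAKL10 had 0.0589, 0.327 and 0.258 CPM in controls and 73.2, 81.2 and 119 CPM after ozone (log2 fold change 8.60, SE 0.40, adjusted p = 2.2e-11), with no overlap. WAKL7 rose by 4.43. Of 60 tested lectin receptor kinases, 41 rose and 9 fell (median 1.79): B120 rose by 7.74 and AT1G61360 by 5.32, and AT1G11410 fell by 1.63. Of 48 receptor-like proteins 22 rose and 6 fell, with RLP12 up by 3.24, RLP31 up by 1.78 and RLP6 down by 1.71. Members of these families that failed the low-count filter are not among these counts, and members that passed it only because of the ozone libraries had to be higher there.

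Calcium signalling genes also rose more often than they fell. No tested calcium-dependent protein kinase was called lower: 16 of 21 rose and 5 were not called, with a median of 1.78. CPK9 had 24.1, 25 and 19.4 CPM in controls and 238, 199 and 192 CPM after ozone (log2 fold change 3.20, SE 0.12), and CPK7 rose by 2.63. Among 19 tested calcium pumps and exchangers 12 rose and 1 fell. ACA2, a calmodulin-activated pump of the endoplasmic reticulum, had 38, 51.6 and 39.2 CPM in controls and 623, 573 and 740 CPM after ozone (log2 fold change 3.91). The vacuolar pumps diverged: ACA11 rose by 2.65, whereas ACA4 was the member that fell, by 1.05. CBL sensors and the CIPK kinases they bind were mixed, with 14 of 27 higher and 8 lower; CIPK23, which acts on potassium and nitrate uptake, rose by 2.81 and CBL10, a sensor of salt stress, fell by 1.37. Glutamate receptor-like channels split 7 to 5 among 16, with GLR2.8 up by 3.87, GLR2.7 up by 2.08 and GLR3.6, known for wound signalling between leaves, down by 1.11.

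Downstream of these, 9 of 16 MAP kinase kinase kinases rose and 1 fell. MAPKKK19 had 0.0589, 0.0818 and 0.206 CPM in controls and 26.3, 27.1 and 49.1 CPM after ozone (log2 fold change 8.13, SE 0.43). MEKK1, which acts in immune signalling, rose by 2.15, and YDA, which restricts stomatal development, fell by 0.39. U-box ubiquitin ligases rose in 13 of 21 and fell in 1 of 21; PUB23, a known brake on immune responses, went from 4.30, 4.17 and 3.61 CPM to 128, 106 and 117 CPM (4.86). ATL ligases were even, with 4 higher and 4 lower of 10, and ATL6 rose by 3.84.

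Transcription factor families differed in direction. Of 60 tested NAC factors 34 rose and 2 fell (median 0.75), and the 83 NAC genes in the files took 0.0498% of control counts (SD 0.00393, n = 3) and 0.206% of ozone counts (SD 0.0326, n = 3). ATAF2 had 22.8, 23.6 and 17 CPM in controls and 559, 488 and 700 CPM after ozone (log2 fold change 4.78), although its annotation overlaps AT5G08780. NAC102, which overlaps AT5G63780, rose by 4.36. Among 37 ERF and DREB factors 25 rose and 4 fell, with ERF1, a meeting point of ethylene and jasmonate signals, up by 6.10, RAP2.9 up by 5.27 and RAP2.7 down by 1.63. RAP2.6, named for being the highest of this family, had a count ratio of 277 (exact 95% interval 49.3 to 10978). Of 24 bZIP factors 10 rose and 2 fell; TGA3, a partner of the salicylic acid receptor NPR1, rose by 2.15, and BZIP61 fell by 3.16.

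MYB factors were mixed, with 23 of 72 higher (31.9%, against 29.8% of all genes) and 14 lower (19.4%, against 27.5%). MYB15, which activates lignin genes in defence, had 0.235, 0.532 and 0.155 CPM in controls and 99.5, 65.8 and 150 CPM after ozone (log2 fold change 8.30). MYB51, an activator of indole glucosinolate synthesis, rose by 4.86, whereas MYB28, its counterpart for aliphatic glucosinolates, fell from 122, 125 and 119 CPM to 47.4, 50.6 and 40.5 CPM (-1.40). The groups of all 3 genes did not overlap. More bHLH factors fell (37 of 95) than rose (25 of 95): MYC4, an activator of glucosinolate and jasmonate genes, fell by 1.85 and HBI1, which favours growth over immunity, by 2.27, but AT5G56960 rose by 7.59. Developmental families fell more often than they rose. Among 37 homeobox factors 19 fell and 6 rose, with ATHB13 down by 1.46 and HB-8, a vascular regulator, down by 1.13. Among 14 TCP factors 8 fell and 3 rose, with TCP15 down by 1.60, TCP2 down by 1.3 and TCP8 up by 1.34.

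**Figure D2:**
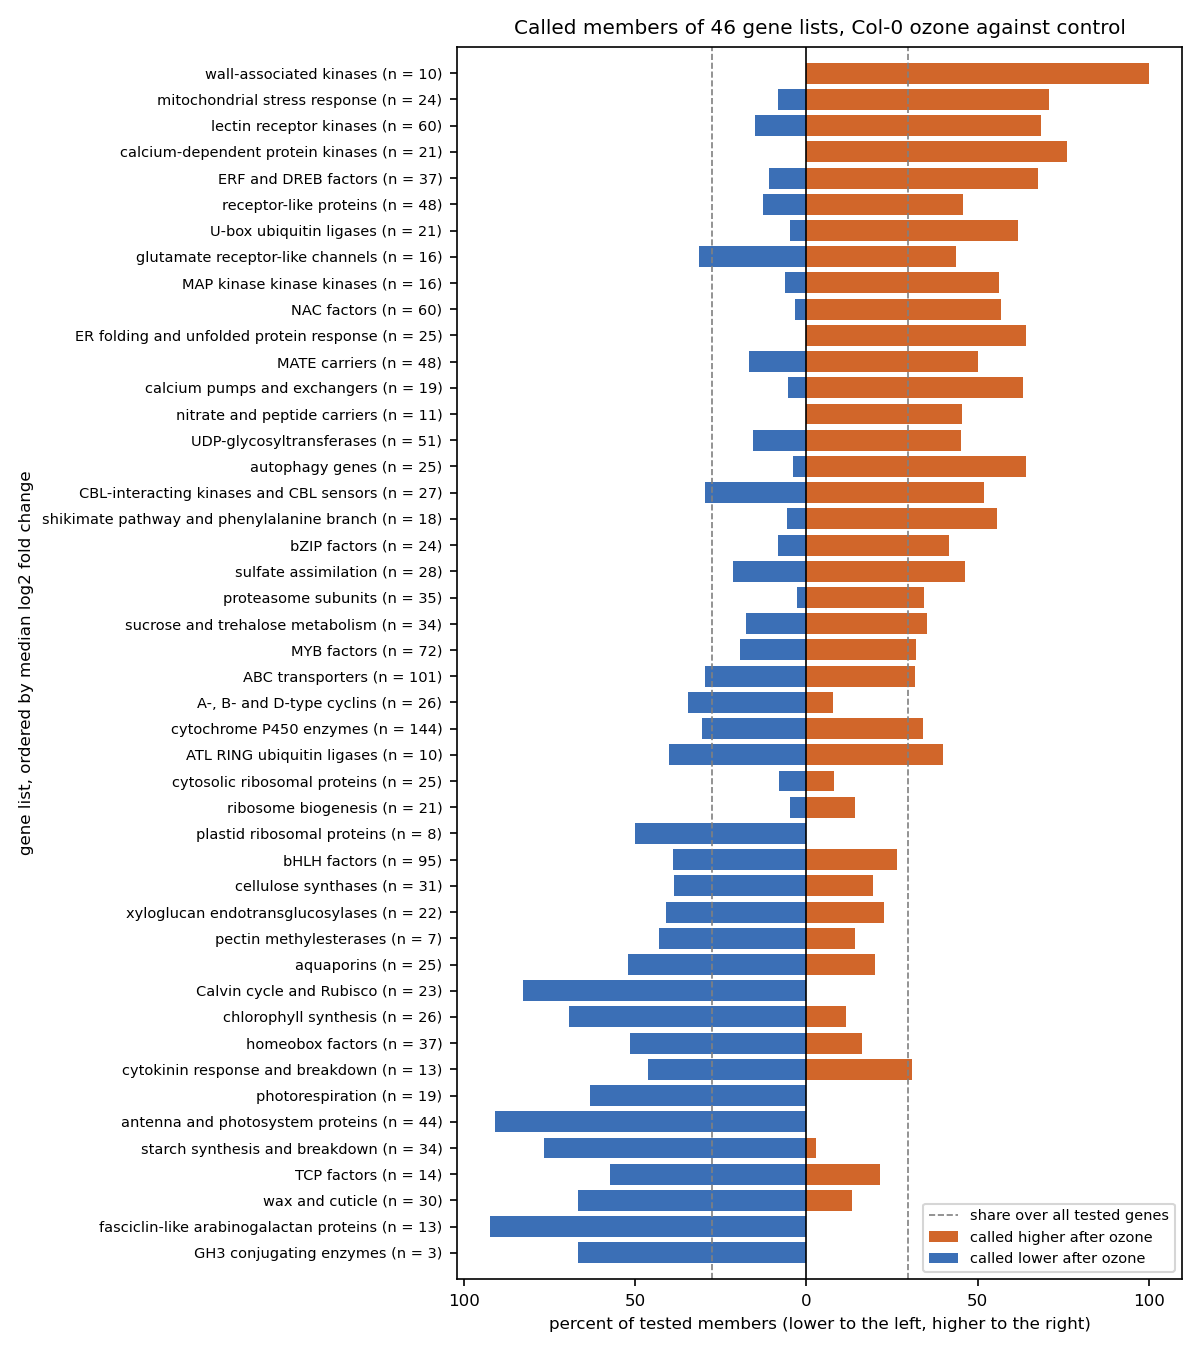
Percent of the tested members of each of 46 gene lists called higher (to the right) and lower (to the left) in Col-0 after ozone. Lists are ordered by median log2 fold change, and dashed lines mark the shares over all tested genes, 29.8% higher and 27.5% lower. All 10 tested wall-associated kinases were called higher, and 12 of 13 fasciclin-like arabinogalactan proteins were called lower.

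Promoters of called genes were examined for short motifs bound by stress- and growth-related factors, with 20304 tested genes matched to the 300 bases around the annotated start (250 before and 50 after). The sequences below are the 250 bases before the RefSeq start of the called gene with the smallest adjusted p that holds the motif in the list it belongs to, from the RefSeq TAIR10.1 genome, written 5′ to 3′ on the strand of the gene. In the files' own TAIR10 annotation NDB2 starts further downstream, at 2572621, and PSBP-2 at 13120090, while the start of the other 4 is the same. Capitals mark the matches to the motif named. The first is from CYP706A2 (chr4:11934719-11934968, plus strand) and holds a W box, TTGACC or TTGACT, the site of WRKY factors. The second is from UGT73B3 (chr4:16344819-16345068, minus strand) and holds a pair of as-1 cores, TGACG, the site of TGA-type bZIP factors. The third is from NDB2 (chr4:2572177-2572426, plus strand), with the mitochondrial dysfunction motif, CTTG and CAAG with any 5 bases between, the site of NAC factors that answer mitochondrial signals. The fourth is from FZF (chr2:10402935-10403184, minus strand), with a telo box, AACCCTA, and the fifth from RPL10B (chr1:9321400-9321649, plus strand), with a site II element, TGGGCC, both common before genes of the translation machinery. The sixth is from PSBP-2 (chr2:13120200-13120449, minus strand), with a G box, CACGTG, bound by bHLH and bZIP factors.
CYP706A2: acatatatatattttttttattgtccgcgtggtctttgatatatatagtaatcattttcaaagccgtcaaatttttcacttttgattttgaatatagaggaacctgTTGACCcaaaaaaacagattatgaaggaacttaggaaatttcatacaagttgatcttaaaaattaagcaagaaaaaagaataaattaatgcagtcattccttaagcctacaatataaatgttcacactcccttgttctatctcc
UGT73B3: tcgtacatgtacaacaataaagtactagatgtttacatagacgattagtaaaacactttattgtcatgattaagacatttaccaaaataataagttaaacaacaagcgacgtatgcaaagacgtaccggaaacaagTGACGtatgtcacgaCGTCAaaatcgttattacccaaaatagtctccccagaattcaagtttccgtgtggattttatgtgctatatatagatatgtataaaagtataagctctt
NDB2: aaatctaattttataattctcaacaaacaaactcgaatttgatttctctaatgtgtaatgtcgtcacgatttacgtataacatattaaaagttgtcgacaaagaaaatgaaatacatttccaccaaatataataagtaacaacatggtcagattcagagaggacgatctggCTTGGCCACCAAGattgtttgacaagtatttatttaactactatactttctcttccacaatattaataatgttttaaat
FZF: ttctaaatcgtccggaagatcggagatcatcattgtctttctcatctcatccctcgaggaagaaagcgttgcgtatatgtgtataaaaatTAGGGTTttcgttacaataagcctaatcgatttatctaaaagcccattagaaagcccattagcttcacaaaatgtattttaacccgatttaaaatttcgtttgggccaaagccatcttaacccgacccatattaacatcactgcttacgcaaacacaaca
RPL10B: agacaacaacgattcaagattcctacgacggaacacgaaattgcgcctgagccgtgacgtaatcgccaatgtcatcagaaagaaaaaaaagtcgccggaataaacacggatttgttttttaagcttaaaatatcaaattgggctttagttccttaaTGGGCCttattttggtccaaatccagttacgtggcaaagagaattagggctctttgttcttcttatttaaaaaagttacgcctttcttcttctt
PSBP-2: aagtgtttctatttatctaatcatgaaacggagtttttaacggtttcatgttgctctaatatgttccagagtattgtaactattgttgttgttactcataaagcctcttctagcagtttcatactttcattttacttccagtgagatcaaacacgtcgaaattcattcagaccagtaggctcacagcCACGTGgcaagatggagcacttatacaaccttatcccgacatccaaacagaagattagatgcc

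A W box on either strand was held by 32.8% of all promoters, by 46.9% of those of genes that rose at least 2-fold and by 24.5% of those that fell at least 2-fold. The rapid stress response element CGCGTT was held by 3.82% of all promoters, 6.55% of the risen set and 2.01% of the fallen set. The as-1 core was held by 27.3% of the risen and 20.1% of the fallen set, against 23.8% of all. In contrast, the telo box and the site II element were rarer in both changed sets (telo box 4.69% and 4.78% against 7.91% of all, site II 12.4% and 9.72% against 18.6%). The mitochondrial dysfunction motif stood before 0.699% of all genes and 0.724% of the risen set, but before 4 of the 24 tested genes of the mitochondrial stress list. The telo box stood before 13 of 21 ribosome biogenesis genes, site II before 13 of 25 cytosolic ribosomal protein genes and the G box before 18 of 44 antenna and photosystem genes, against 8.73% of all promoters for the G box. The W box stood before 50 of 144 cytochrome P450 genes (34.7%), the as-1 core before 12 of 51 glycosyltransferase genes (23.5%) and CGCGTT before 2 of 37 ERF and DREB genes (5.41%). The ER stress element, CCAAT and CCACG with any 9 bases between or ATTGG and CCACG with 1, stood before 5 of 25 ER genes against 0.561% of all, the M-specific core before 12 of 26 cyclin genes against 26.1%, and the auxin response element TGTCTC before 1 of 3 GH3 genes against 13.7%. Motifs overlapped one another to a small extent: 2.38% of W boxes overlapped the core AACGG of the M-specific activator and 0.289% an as-1 core, while 9.59% of mitochondrial dysfunction motifs overlapped a W box. These shares describe letters in a window and carry no test.

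**Figure D3:**
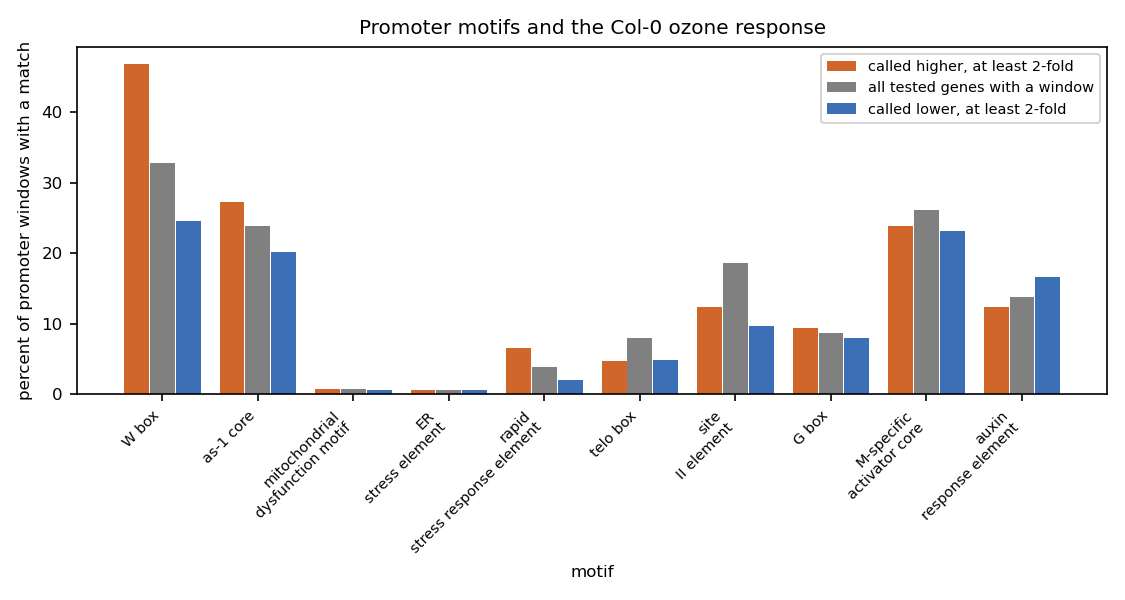
Share of promoters (percent, axis from 0) holding each motif on either strand among all tested genes, genes that rose at least 2-fold and genes that fell at least 2-fold. The W box runs from 24.5% in the fallen to 46.9% in the risen set, and site II is lower in both changed sets than in all genes.

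The printed genes changed as follows. CYP706A2, a cytochrome P450, had 69.2, 65.1 and 71.4 CPM in controls and 653, 738 and 590 CPM after ozone (log2 fold change 3.27, SE 0.14, adjusted p = 1.1e-11). UGT73B3, which attaches glucose to flavonoids and xenobiotics, had 1.41, 1.47 and 1.75 CPM in controls and 34, 23 and 29.2 CPM after ozone (4.21), with an annotation that overlaps AT4G34120. NDB2, an external alternative NADH dehydrogenase of mitochondria, had 24.2, 30.4 and 17.3 CPM in controls and 370, 224 and 379 CPM after ozone (3.75). In each of the 3 the lowest ozone library was several times the highest control. FZF (1.1) and RPL10B (0.87) rose and PSBP-2, a gene for a subunit of the oxygen-evolving complex, fell (-1.76).

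Cytochrome P450 enzymes as a family went both ways, with 49 of 144 higher, 44 lower and a median of -0.09 (44 higher and 48 lower with library totals), although their summed share of counts went from 0.408% (SD 0.0199, n = 3) to 0.635% (SD 0.0301, n = 3). UDP-glycosyltransferases, which make small molecules soluble, rose in 23 of 51 and fell in 8; UGT73B5 rose by 6.44 and the flavonol-specific UGT78D1 fell by 1.44. MATE carriers rose in 24 of 48 and fell in 8, with DTX1, a toxin exporter, up by 7.45 and AT4G23030 by 5.37. ABC transporters were even at 32 higher and 30 lower of 101 (30 and 35 with library totals): ABCG42 (4.33) and ABCG43 (5.55), neighbours in the genome, rose, and ABCG11, which exports cuticular lipids, fell (-0.96). Of 11 nitrate carriers 5 rose and 0 fell, with NRT2.6 up by 4.85 and NRT1.8, which removes nitrate from the xylem, up by 4.94. AT3G23550, a MATE carrier named for being the highest of its family, had 2.06, 1.39 and 1.14 CPM in controls and 857, 502 and 522 CPM after ozone (8.69).

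Aromatic amino acid supply held more increases than decreases. In the shikimate pathway and its phenylalanine branch 10 of 18 rose and 1 fell. The DAHP synthase AT1G22410, at the entry to the pathway, had 102, 166 and 135 CPM in controls and 883, 669 and 1276 CPM after ozone (log2 fold change 2.81, SE 0.23, adjusted p = 1.8e-08), and ADT4, a last enzyme to phenylalanine, rose from 25.6, 35.1 and 27.7 CPM to 290, 222 and 389 CPM (3.35). CM1, a plastid chorismate mutase, fell by 0.48. In sulfate assimilation, which supplies cysteine and glutathione, 13 of 28 rose and 6 fell. APS1, an ATP sulfurylase, had 557, 675 and 591 CPM in controls and 2486, 1869 and 2268 CPM after ozone (1.86), without overlap, whereas its relative APS2 fell by 0.67. SERAT2;1, a serine acetyltransferase for cysteine synthesis, rose by 2.11.

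In 2 lists of organelle stress genes more members rose than fell. Of 24 tested genes of the mitochondrial stress response 17 rose and 2 fell, with a median of 2.07, and their share of all counts was 4.14-fold larger after ozone. The small heat shock protein AT5G51440 had 0.824, 1.06 and 0.980 CPM in controls and 61.4, 39.0 and 68.1 CPM after ozone (log2 fold change 5.85, SE 0.22), and the alternative dehydrogenase NDA2 rose by 3.35. Chosen after their values were seen, the alternative oxidases AOX1D and AOX1A rose by 6.66 and 3.07, AOX1A from 33.4, 34.7 and 25.1 CPM to 271, 219 and 294 CPM. UCP2, an uncoupling protein, fell by 0.73. In the endoplasmic reticulum 16 of 25 folding and unfolded protein response genes rose, 9 of them by at least 2-fold, and 0 fell (10 rose without ozone replicate 3). The median of the 25 was 0.75. BZIP60, the transcription factor of this response, had 19.2, 28.4 and 19.0 CPM in controls and 198, 210 and 243 CPM after ozone (3.28), and IRE1A, the sensor that splices its messenger, rose by 2.32.

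Genes of protein turnover had smaller medians. Of 25 autophagy genes 16 rose and 1 fell (median 0.54), AtATG18a by 1.41 and ATG18C by 1.45. Of 35 proteasome subunits 12 rose, a share of 34.3% against 29.8% of all genes, and 1 fell (median 0.17), or 9 and 2 with library totals (median 0.05). RPT3 rose by 1.03 and RPT1A by 0.56, with RPN12b, a second copy of a lid subunit, down by 2.04. In the short lists of protein synthesis genes most transcripts were not called: 21 of 25 for cytosolic ribosomal proteins and 17 of 21 for ribosome biogenesis. Some genes meant for the biogenesis list found no match by name and are missing from it. With the replicate number as a block in the model, 6 genes were called lower in each list, against 2 and 3 called higher. RPL18AA, the cytosolic ribosomal protein gene with the smallest adjusted p, rose by 1.55 but overlaps AT1G29965. Of 8 plastid ribosomal protein genes 4 fell and 0 rose, with PSRP2 at -0.45 and PSRP5 at -0.39.

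Most photosynthesis genes were called lower and none was called higher in the lists of the photosystems, the Calvin cycle and photorespiration. Of 44 antenna and photosystem genes 40 fell and 0 rose, with a median log2 fold change of -0.63. PSBR, PSAE-2, LHCB4.3 and PSAH-1 were not called. The 44 genes took 16.5%, 14.4% and 15.0% of control counts and 9.02%, 10.8% and 7.69% of ozone counts. PSB27, an assembly factor of photosystem II, fell from 502, 428 and 460 CPM to 237, 313 and 239 CPM (-0.82, SE 0.12, adjusted p = 1.2e-05). In the Calvin cycle 19 of 23 genes fell and 0 rose (11 fell without ozone replicate 3), and the share of counts went from 7.99%, 8.27% and 8.18% to 4.96%, 6.03% and 4.74%. The plastid transketolase AT3G60750 had 2221, 2116 and 2151 CPM in controls and 1154, 1498 and 1078 CPM after ozone (-0.80), and phosphoribulokinase PRK fell by 1.03. Of 19 photorespiration genes 12 fell and 0 rose: GOX1 and GOX2, the neighbouring and closely similar glycolate oxidase genes, fell by 0.93 and 0.89.

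Chlorophyll synthesis fell in 18 of 26 genes and rose in 3, and isogenes of its first committed step moved in opposite directions. HEMA2, the stress-inducible glutamyl-tRNA reductase, had 18.9, 18.5 and 18.7 CPM in controls and 152, 156 and 227 CPM after ozone (log2 fold change 3.25, SE 0.22, adjusted p = 1.9e-09). HEMA1, the main leaf gene for this enzyme, named after its values were seen, went from 1150, 1082 and 980 CPM to 382, 607 and 349 CPM (-1.26, SE 0.16, adjusted p = 4.6e-06). Neither gene had overlapping groups. GUN4, an activator of magnesium chelatase, fell from 301, 284 and 278 CPM to 71.3, 126 and 60.9 CPM (-1.74), and CH1, which makes chlorophyll b, fell by 1.63. Starch genes fell in 26 of 34 and rose in 1, with PHS1 (overlapping AT3G29330) down by 1.22, SS2 down by 1.05 and BAM4, an amylase-like regulator (overlapping AT5G55710), up by 0.84. Sucrose and trehalose genes rose in 12 of 34 (35.3%, against 29.8% of all genes) and fell in 6. The cytosolic invertase CINV1 rose by 1.34 and TPS5, of the trehalose phosphate synthase family, fell by 2.24. SUC7, a sucrose carrier with close paralogs, had 2 control counts and a count ratio of 185 (exact 95% interval 50.9 to 1534).

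Of the 9 matched mesophyll markers 8 fell and 0 rose, and their summed level went from 84429 to 87175 CPM in controls to 49239 to 63687 CPM after ozone. These markers are mostly genes of photosynthesis and photorespiration, such as RBCS1A, RCA and LHCB1.1. The fall of this set therefore repeats the decreases above and is no separate measure of mesophyll cells. Epidermis markers fell in 5 of 9 and rose in 1, with sums of 648 to 682 CPM in controls and 360 to 401 CPM after ozone. Guard cell and stomatal lineage markers fell in 5 of 10 and rose in 1 (102 to 107 CPM against 73.4 to 89.7 CPM). Phloem markers were called in 0 of 5 and summed to 458 to 466 CPM in controls and 458 to 461 CPM after ozone. Xylem markers rose in 1 of 7 and fell in 0. In pooled rosettes fewer cells of a type and less RNA per cell cannot be told apart, and the part of cell composition in these results was not tested.

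**Figure D4:**
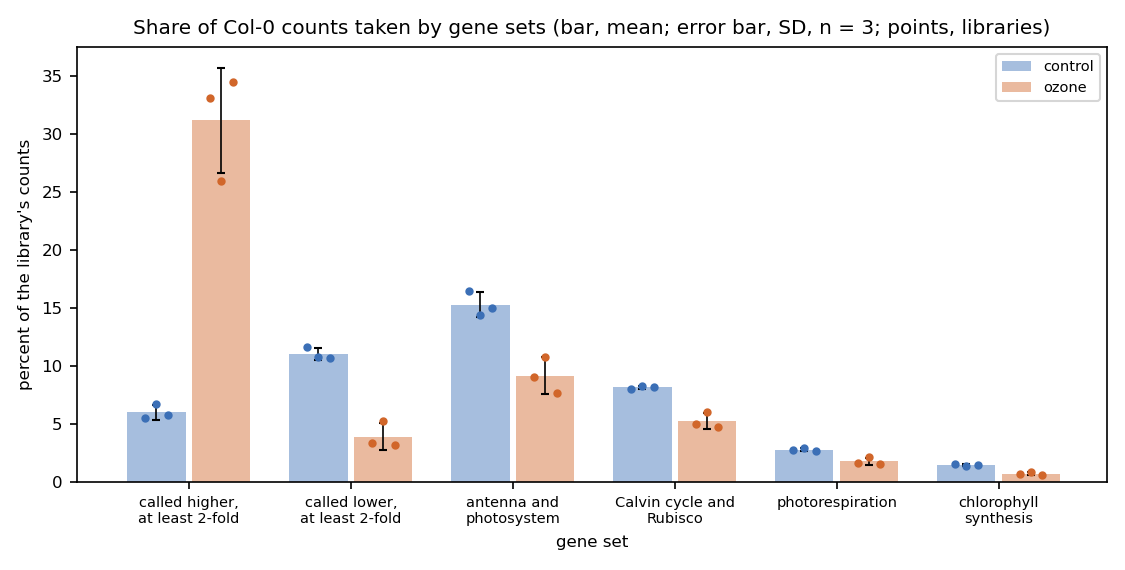
Share of all counts (percent) held by gene lists and by the genes called higher or lower at least 2-fold in the Col-0 libraries. Bars are means, error bars SD (n = 3) and points the 3 control and 3 ozone libraries. Antenna and photosystem genes go from 14.4% to 16.5% in controls to 7.69% to 10.8% after ozone, with ozone replicate 2 nearest to the controls.

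Lists of water transport, the cell wall and the leaf surface held more decreases than increases, to unequal degrees. Over all tested genes 27.5% fell and 29.8% rose, and the 38.7% of cellulose synthases that fell was not far above that. Aquaporins fell in 13 of 25 and rose in 5, and the family's share of counts went from 0.523%, 0.588% and 0.527% to 0.148%, 0.234% and 0.140%. PIP3 fell from 374, 390 and 390 CPM to 135, 170 and 140 CPM (log2 fold change -1.37, SE 0.11), whereas SIP1;2, which overlaps AT5G18300, rose by 3.10. Of 13 fasciclin-like arabinogalactan proteins, adhesion proteins of the wall, 12 fell and 0 rose: FLA8 fell by 1.54 and FLA1 by 1.04. Cellulose synthases and their relatives fell in 12 of 31 and rose in 6, with 13 not called, CSLG3 at -2.10, CSLC5 at -1.18 and CSLE1 (overlapping AT1G55860) at 3.16. Xyloglucan endotransglucosylases fell in 9 of 22 and rose in 5, with XTH9 down by 1.45 and XTH30 up by 3.03. Pectin methylesterases fell in 3 of 7, with PME44 down by 1.03, PME1 down by 0.62 and PME3 up by 0.92.

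Wax and cuticle genes fell in 20 of 30 and rose in 4 (median -0.86). GPAT8 (-1.51) and CYP86A8 (-1.32), enzymes of cutin monomers, fell, and LACS1, an acyl-CoA synthetase of wax synthesis, rose from 64.5, 56.9 and 75.7 CPM to 182, 164 and 173 CPM (1.40). MYB16, a cuticle regulator named after its values were seen, fell from 32.8, 21.8 and 21.2 CPM to 3.04, 4.34 and 2.17 CPM (-2.96). Cyclins of the A, B and D types fell in 9 of 26 (34.6%, against 27.5% of all genes), rose in 2 and were not called in 15 (median -0.09). CYCD1;1 fell by 1.49, CYCD3;2 by 0.87, and CYCD5;1 rose by 0.95. Cytokinin genes fell in 6 of 13 and rose in 4, with the response regulators ARR9 (-1.75) and ARR6 (-1.39) lower and CKX4, which degrades cytokinin, higher (2.29). The auxin-conjugating enzymes GH3.9 (-1.10) and GH3.17 (-1.14) fell among 3 tested GH3 genes.

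The response of Col-0 was then set against the mean response of the ozone-sensitive Col-S and Cvi-0 in the same model. The difference was called for 3322 genes (16.1%), positive for 1370 (6.64%) and negative for 1952 (9.47%). Among the 3501 genes that rose at least 2-fold in Col-0, 984 had a negative difference, so rose more in the sensitive mean, and 154 a positive one. Among the 1760 that fell at least 2-fold, 220 had a positive difference, so fell more in the sensitive mean, and 78 a negative one. The positive count depended on single libraries: it was 875 without control replicate 2, 866 without control replicate 3 and 769 without ozone replicate 2.

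Of the 44 antenna and photosystem genes 26 had a positive and 0 a negative difference, with median log2 fold changes of -0.63 in Col-0, -1.06 in Col-S and -1.29 in Cvi-0. The count was 6 without control replicate 2, 9 without control replicate 3 and 7 without ozone replicate 2. In the Calvin cycle 15 of 23 differences were positive and 0 negative (medians -0.47, -0.96 and -1.19). GUN4 fell by 1.74 in Col-0, 2.56 in Col-S and 3.00 in Cvi-0 (difference 1.04, SE 0.25, adjusted p = 0.0091). HEMA2, in the other direction, rose by 3.25, 4.60 and 5.44 (difference -1.76, adjusted p = 0.00031). Among stress genes, BZIP60 rose by 3.28, 4.20 and 4.85 in the same order (difference -1.24, SE 0.21, adjusted p = 0.00093) and ADT4 by 3.35, 4.22 and 4.41 (difference -0.97, not called without replicate 2 of both Col-0 groups, adjusted p = 0.084). NAC factors had 15 negative and 4 positive differences among 60, and calcium-dependent protein kinases 8 and 1 among 21. Without replicate 2 of both Col-0 groups the negative counts were 6 and 2.

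Other lists held more positive than negative differences, which arise where a gene rose more or fell less in Col-0. Sulfate assimilation had 8 positive and 0 negative differences among 28 (4 positive with RLE factors, without control replicate 1 or without ozone replicate 3). APS1 rose by 1.86 in Col-0, 1.55 in Col-S and 0.35 in Cvi-0 (difference 0.91, SE 0.15, adjusted p = 0.00098). MATE carriers had 12 positive and 3 negative differences among 48, and cytochrome P450 enzymes 25 and 15 among 144. PLA2A rose by 6.96, 7.08 and 4.04 (difference 1.39, adjusted p = 0.043) and AACT1 by 11.30, 9.28 and 7.91 (difference 2.71, SE 0.82, adjusted p = 0.034). Both calls were fragile: PLA2A lost its call in 6 alternatives (adjusted p 0.051 to 0.11) and AACT1 in 5 (0.051 to 0.089). In APS1 and PLA2A the value of Col-S lay closer to that of Col-0 than to that of Cvi-0, so the mean of the sensitive genotypes covers unlike responses. XTH9 fell by 1.45, 0.75 and 0.11 (difference -1.02, adjusted p = 0.0021), a larger decrease in Col-0.

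**Figure D5:**
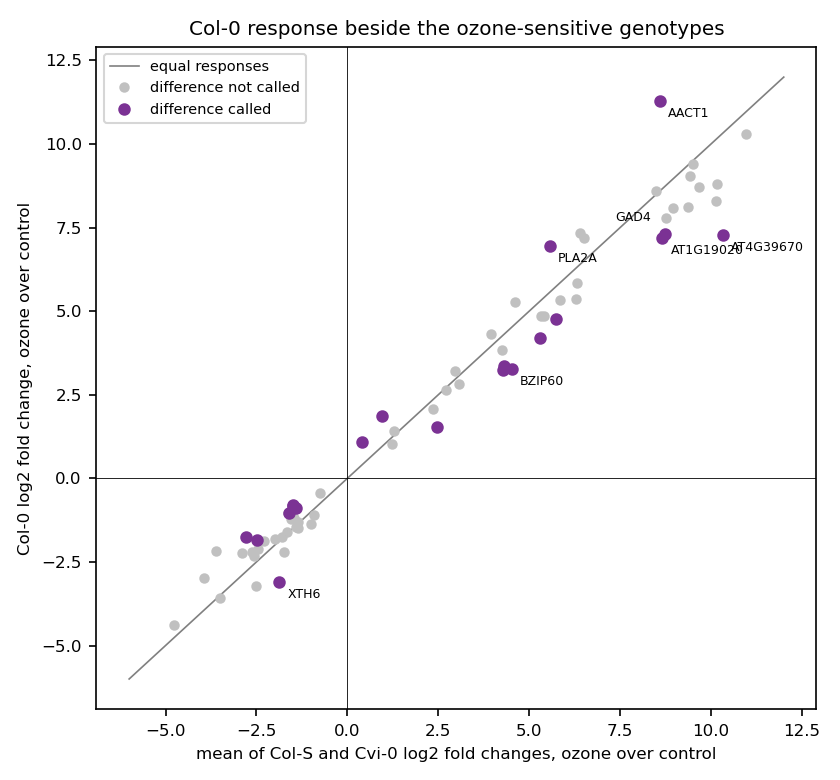
Log2 fold change after ozone in Col-0 against the mean of Col-S and Cvi-0 for 69 named genes, with a line of equal response. These are the first named gene of each list and the abundant and intermediate genes, so HEMA2 and XTH9 are not shown. Genes whose difference was called are marked apart. BZIP60 and AT4G39670 lie on the side of the stronger sensitive response, and APS1, PLA2A and AACT1 on the side of the stronger Col-0 response.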

How the data were processed

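RNA from pooled whole rosettes was made into Illumina TruSeq RNA v2 libraries, per the labels' protocols. The authors deposited raw counts per gene, 1 table per library, and the tools FastQC, TopHat2, SAMtools and HTSeq with the build TAIR10 are named in the submitters' processing notes. Versions, strandedness and how multiply matching reads were counted are, in the sources used here, not given, so values of overlapping or near-identical genes are uncertain. Besides the genes marked above, NRT1.8, DTX1, ABCG11, UCP2, ATG18C and PSRP5 also overlap another annotated gene. All 279 organelle genes were at 0. Gene names came from RefSeq TAIR10.1 by locus code (31912 of 32678 matched).

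Counts of all 18 libraries were fitted with 6 group means in edgeR 4.0.16 (R 4.3.3) by its quasi-likelihood test, with TMM factors and filterByExpr at a minimum of 10 counts. P-values were Benjamini-Hochberg adjusted over 20622 genes at a threshold of 0.05. Standard errors were taken from the log2 fold change and the F statistic. CPM of single genes are counts over library totals scaled by the TMM factors. CPM of the floor and of the summed markers use library totals without these factors. Depth set a floor of 3 counts, 0.116 to 0.181 CPM. Count ratios use TMM-scaled totals, with exact 95% intervals that cover counting error only. No replicates agreed within sampling noise. On simulated data for the Col-0 comparison the fit found 76% of 100 genes changed 2-fold and 99% of 100 changed 4-fold, with 9 false calls among 20268 genes. Only 200 genes were changed there, as many up as down, with equal group means elsewhere. In the real comparison 57.3% of genes were called, so these rates need not hold for it.

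Genes were named by rule. Of each list these were the 2 called members with the smallest adjusted p in the more frequent direction and 1 in the other. Of abundant genes the 8 highest and 8 lowest changes were named, and of intermediate ones the 5 highest and 5 lowest. Both were taken from called genes whose control and ozone values in Col-0 did not overlap. Genes said to be named after their values were seen, family extremes, NDB2, and genes of the differences section lie outside it. Members and lists were chosen with earlier results of these data known. Wrong matches of symbols shared by unlike genes were corrected by product name after values had been seen. DESeq2 1.42.0, other scalings and filters, a replicate block and left-out libraries were run as alternatives.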

Additional observations from a re-analysis of the deposited data

Results flagged for a closer look

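The ozone response of 20 of the 69 genes examined for this differed between Col-0 and the mean of Col-S and Cvi-0, 10 in each direction. The test was the interaction contrast of the edgeR quasi-likelihood fit (Benjamini-Hochberg adjusted p below 0.05 over all genes). Over all tested genes 16.1% differed, 1370 positive and 1952 negative. The 69 were picked for a small adjusted p or a large change in Col-0. Values below are log2 differences, Col-0 response minus the mean of the sensitive responses, unless each genotype is named. Genes that rose in Col-0, but less than in the sensitive mean, were AT4G39670 (-3.04), AT1G19020 (-1.46), GAD4 (-1.41), BZIP60 (-1.24), UGT73B3 (-1.09), RLP12 (-1.04), ADT4 (-0.97), ATAF2 (-0.96) and RPL18AA (-0.92). Without Col-0 control replicate 2 the difference of AT4G39670 was -1.91 and that of AT1G19020 was -0.90, neither called. GAD4 lost its call in 5 alternatives. XTH6 fell more in Col-0 (-1.22). Genes that rose more in Col-0 than in the sensitive mean were AACT1 (2.71), PLA2A (1.39), APS1 (0.91) and FZF (0.70). In the order Col-0, Col-S and Cvi-0, PLA2A changed by 6.96, 7.08 and 4.04, APS1 by 1.86, 1.55 and 0.35, and FZF by 1.1, 0.9 and -0.11. The last 3 genes thus differed mainly from Cvi-0. Genes that fell less in Col-0 were GUN4 (1.04), the transketolase AT3G60750 (0.70), PSB27 (0.67), MYC4 (0.64), FLA1 (0.56) and GOX2 (0.53). AACT1, PLA2A, FZF, GOX2, FLA1, XTH6, RLP12, ATAF2 and ADT4 each lost their call in at least 1 alternative.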

How the results depend on the processing

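No gene named by the rule changed direction under any alternative run, and no gene called in Col-0 was called in the opposite direction by any of them. The 6145 higher and 5679 lower calls were 6196 and 5564 with DESeq2, 6165 and 5643 with RLE factors, 6106 and 5444 without a filter, 5789 and 5497 with the filter at 50 counts, and 5616 and 5039 with only the Col-0 libraries. Leaving out 1 Col-0 library gave 5589 to 6453 higher and 4784 to 5402 lower, and 769 to 1528 positive and 1335 to 1877 negative differences from the sensitive genotypes. Without replicate 2 of both groups there were 6045 higher and 5420 lower, and the differences numbered 554 positive and 955 negative. The cause was not tested, beyond the smaller number of libraries. DESeq2 gave 2444 negative differences.

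To look for pairing, the group mean of each gene was subtracted from its log2 CPM, and the remaining deviations were correlated between libraries. Deviations of same-numbered control and ozone libraries of Col-0 correlated at 0.243, 0.05 and 0.081. Those of Col-S correlated at 0.279, 0.139 and 0.128 and those of Cvi-0 at 0.203, 0.105 and 0.04. The labels do not say that a number marks a shared pool or day, and 3 of these were not over 0.1, so the main fit did not pair the samples. All 9 were above 0, and a pairing by number is possible and was not settled. With the replicate number as a block, 6517 genes were higher and 6340 lower, and 2473 differences were positive and 2506 negative. The deviations of Col-0 control replicate 2 correlated best with those of Col-0 ozone replicate 3 (0.171).

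The sign of the median or the more frequent direction changed in at least 1 alternative for the P450, ABC, cyclin and ribosome biogenesis lists, library totals among them except for the cyclins. The even split of the ATL list became 4 to 3 with the filter at 50 counts, and that of the cytosolic ribosomal list 2 to 4 with library totals and 2 to 6 with the replicate block. Counts of called members moved for 15 MYB factors higher (only Col-0 libraries), 7 plastid ribosomal genes lower (library totals) and 5 pectin methylesterases lower (library totals and replicate block). ATG8F, RPL16A, AT3G05060 and CM1 lost their call in at least 1 alternative. Of the promoter shares of the changed sets, 39 moved beyond their binomial interval and 21 did not when the window ended at the start, 1 strand was read or all called genes were taken. The site II share of all genes called lower was close to that of all promoters.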
